A study of Mus musculus with 2 samples.

Results

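Epidermal differentiation transcription factors are the 10 genes *Trp63*, *Gata3*, *Ovol1*, *Cebpa*, *Cebpb*, *Klf4*, *Zfp750*, *Prdm1*, *Grhl1* and *Grhl3*. These genes were taken by name from the array's own annotation, with no use of their values, although earlier results of these data were known. They were measured by 13 of the 39420 probes, and all 10 are among the 22373 of 30133 genes that gave a difference between the genotypes. RNA from newborn skin at postnatal day 0 (P0) was compared between *Pnpla1*-/- mice and their *Pnpla1*+/+ littermates, all on the C57BL/6N strain. The *Pnpla1*-/- mice carried a germline knockout-first allele that, after the action of flippase, held neither IRES-LacZ nor Neo. Each genotype was 1 Agilent array with 1 dye (Cy3), hybridised with equal amounts of RNA from 6 pooled animals, so that no spread between animals was measured, no test was possible, and the values hold for these 2 pools of RNA. The labels call the tissue skin and the design text speaks of epidermis.

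Intensities are given as deposited, after the scanner software's background subtraction. The array of the *Pnpla1*+/+ pool is called wild-type and that of the *Pnpla1*-/- pool knockout. A difference is the log2 ratio of knockout to wild type, positive where the knockout was higher, once each array had been divided by its own 75th percentile. This percentile was 2108 for the wild type and 1734 for the knockout, so that equal intensities on both arrays give a positive difference. A gene was counted as changed at 2-fold, a log2 difference of 1. The technical SD of a difference was 0.09, the median over 385 probes with at least 8 repeated spots, while the error that the scanner software attached to the members' spots came to 0.20 on a difference. The scanner's error was nearly the same share of the signal at every member spot, so it does not tell these spots apart. The technical SD comes from repeated spots within each array, so it also leaves out variation of labelling and hybridisation. Both leave out the variation between animals. *Pnpla1* itself, the gene of a lipase-family enzyme of acylceramide synthesis in the skin barrier, read 579 on the wild-type array and 114 on the knockout array, a difference of −2.07. Probes of keratinocyte genes were bright in both pools, with intensities of 220487 and 210699 for the basal keratin *Krt5* and of 277989 and 262540 for the suprabasal keratin *Krt10* in *Pnpla1*+/+ and *Pnpla1*-/- skin.

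The epidermis renews itself from basal cells, which leave the basement membrane, pass through spinous and granular layers and die as the cornified cells of the barrier. p63 sets up the epithelial lineage and keeps the basal layer, while GATA, OVOL, C/EBP, KLF, ZNF750, BLIMP1 and grainyhead-like proteins act one after another on growth arrest, keratin switching and assembly of the cornified envelope and its lipids. Mice lacking *Klf4* or *Grhl3* are born with a defective skin barrier.

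*Grhl3* and *Ovol1* were the members that were at least 2-fold higher in *Pnpla1*-/- skin, 2 of 10, beside 6.7% of all genes with a difference. None of the 10 was at least 2-fold lower, beside 3.04% of all genes. *Cebpb* was 1.77-fold higher, and the other 7 members were within 0.5 of 0 on the log2 scale. The median over the 10 members was 0.23, beside 0.00 over all genes, whose quartiles ran from −0.26 to 0.32. All 13 probes were well above background on both arrays, none was saturated and none had an outlier flag. In bulk skin, fewer cells of a type and less RNA per cell cannot be told apart.

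**Figure D1:**
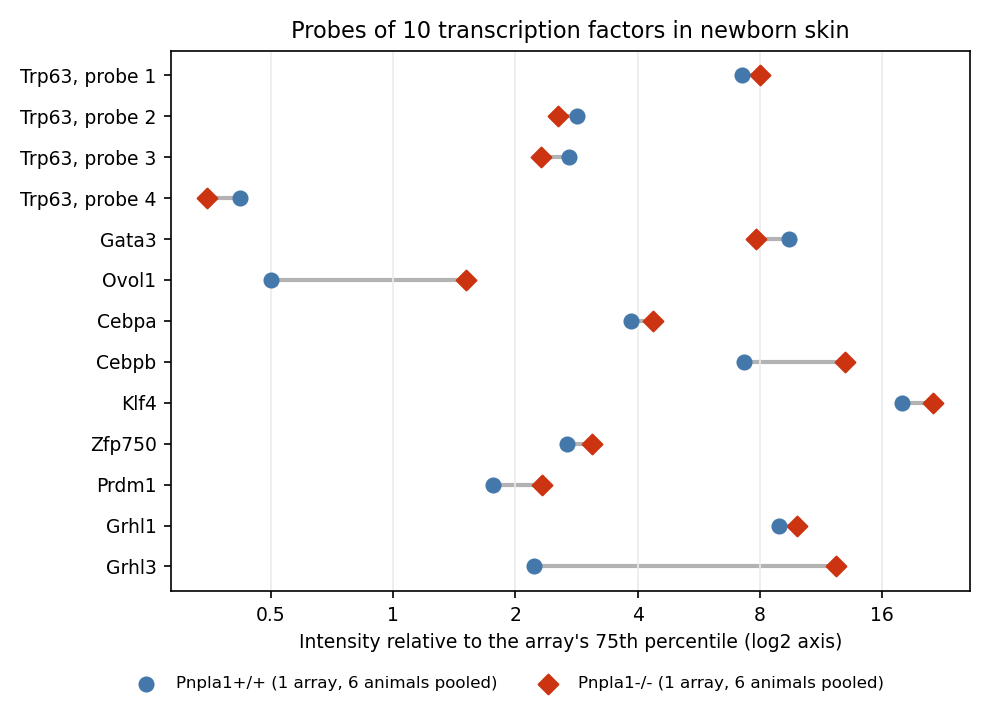
Intensity of each of the 13 probes relative to the 75th percentile of its array (log2 axis), in *Pnpla1*+/+ skin (circles) and *Pnpla1*-/- skin (diamonds), 1 array per genotype. The widest gaps are those of *Grhl3*, from 2.22 to 12.3, and *Ovol1*, from 0.501 to 1.51. Levels of different probes cannot be compared with one another.

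*Grhl3*, a grainyhead-like factor needed in mice to close the neural tube and to form the skin barrier, read 4689 on the wild-type array and 21384 on the knockout array. This was a 5.54-fold difference, 2.47 on the log2 scale, and 1.02% of the genes measured on both arrays had a larger one. *Grhl1*, its paralogue, which acts on desmosomal cadherin genes, had intensities of 18870 and 17171 and a difference of 0.15. This was below the scanner's error of 0.20 and above the technical SD of 0.09. The remaining grainyhead-like gene, *Grhl2*, a regulator of epithelial junctions, went from 4231 to 2917, a difference of −0.25. The elevation was thus seen for 1 of the 3 genes of this subfamily. *Grhl3* was read by 1 probe, at chr4:135097991-135098050 on the minus strand of mm9, and *Grhl1* by 1 probe at chr12:25302095-25302154 on the plus strand. The first bases of the *Grhl3* probe are shown because the largest difference rests on this sequence alone.
*Grhl3* probe, first 30 of 60 bases: ggaacaaatacccttgccacctactgttgt

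The RefSeq promoter of *Grhl3* (GRCm38.p6) is shown from 250 bases before the start of transcription, chr4:135573633-135573882 on the minus strand, since this gene differed most. Capitals mark CACCC, a box bound by Krüppel-like factors.
*Grhl3* promoter: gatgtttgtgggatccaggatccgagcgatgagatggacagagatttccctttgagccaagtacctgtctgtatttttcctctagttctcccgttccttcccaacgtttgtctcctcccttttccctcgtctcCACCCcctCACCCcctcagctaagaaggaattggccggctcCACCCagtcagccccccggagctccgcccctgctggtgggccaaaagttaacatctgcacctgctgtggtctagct
Promoters of 7 members matched in the table, in 8 versions, and each was searched on both strands from 250 bases before to 50 bases after the start. CACCC occurred in 5 of these 8 windows, 3 times in *Grhl3*, and in 57.5% of all 32851 windows. AACCNGTT, the core of the grainyhead site, occurred in none of the 8 and in 2.09% of all windows. The C/EBP letters TTGCNNCAA were found in 1 of the 8, a *Grhl1* promoter, and in 2.08% of all. The AP-1 letters TGANTCA were found in *Prdm1* alone of the 8, and in 7.81% of all, and AGATAA, read by GATA factors, in none and in 11.2% of all. Matches of different motifs did not overlap in these windows. Such matches describe the sequence and are not binding sites.

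*Ovol1*, a zinc finger repressor that restrains proliferation of keratinocytes as they leave the basal layer, read 1056 on the wild-type array and 2620 on the knockout array. The difference was 1.59, or 3.02-fold, with 2.60% of the genes measured on both arrays above it. Its relative *Ovol2*, which holds epithelial cells in their state, had intensities of 9117 and 6805 and a difference of −0.14, and *Ovol3* was on neither array well above background. *Ovol1* was thus past 2-fold, while *Ovol2* was under it. The *Ovol1* probe lies at chr19:5549209-5549268 on the minus strand of mm9 and is the only one for this gene, which is why its sequence is given.
*Ovol1* probe, first 30 of 60 bases: agcacccgtccaactagtaaagtgagagaa

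*Cebpb*, which with *Cebpa* takes basal keratinocytes out of the cell cycle and switches on *Krt1* and *Krt10*, read 15459 on the wild-type array and 22522 on the knockout array. Its difference of 0.82 lay under 2-fold, and 7.40% of the genes measured on both arrays were above it. *Cebpa* had intensities of 8110 and 7555 and a difference of 0.18. Within the C/EBP family, *Cebpd*, an acute-phase member, went from 15145 to 31576, a difference of 1.34. *Cebpe*, best known from granulocytes, was well above background in *Pnpla1*-/- skin alone, with intensities of 13.8 and 135, and was at least 6.87-fold higher, a bound of 2.78 on the log2 scale that was 1.25 with normexp background correction. *Cebpg* (0.29), the antagonist *Ddit3* (0.23) and *Cebpz* (−0.26) were under 2-fold. The probes of *Cebpb* and *Cebpa* lie at chr2:167515828-167515887 and chr7:35906517-35906576, both on the plus strand of mm9.

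*Klf4*, which drives late differentiation in the granular layer, read 37873 on the wild-type array and 37186 on the knockout array, a difference of 0.26. *Zfp750*, the mouse gene of ZNF750, which represses basal genes and works with KLF4, had intensities of 5644 and 5345 and a difference of 0.20. *Prdm1*, the gene of BLIMP1, which acts in the last steps of granular differentiation and in sebaceous glands, had intensities of 3711 and 4045 and a difference of 0.41. The raw intensities of *Klf4* and *Zfp750* were thus slightly lower and that of *Prdm1* slightly higher in *Pnpla1*-/- skin. Among the relatives of *Klf4*, *Klf5*, found in proliferating keratinocytes, had a difference of 0.63, and *Klf2*, *Klf3* and *Klf6* lay between −0.29 and 0.28. Of other PRDM genes, *Prdm2*, *Prdm4*, *Prdm10* and *Prdm16* lay between −0.30 and 0.21 at their brightest probes, and the other *Prdm10* probe gave 0.58. The probe of *Klf4* lies at chr4:55540167-55540226, that of *Zfp750* at chr11:121372670-121372729 and that of *Prdm1* at chr10:44157089-44157148, all on the minus strand of mm9.

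*Gata3*, which promotes epidermal lipid synthesis and inner root sheath fate in the hair follicle and is also expressed by T cells, was the only member whose brightest probe had a negative difference when arrays were scaled by the 75th percentile, although 3 of the 4 *Trp63* probes were also below 0. Its intensity was 19961 on the wild-type array and 13575 on the knockout array, a difference of −0.27, and 23.3% of the genes measured on both arrays were lower still. *Gata2* (0.00), *Gata1* (0.11), *Gata5* (0.23) and *Gata6* (0.42) were under 2-fold, and *Gata4* was on neither array well above background. The *Gata3* probe lies at chr2:9779551-9779610 on the minus strand of mm9.

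*Trp63* was the only member with more than 1 probe, and its 4 probes gave values on both sides of 0, which were not tested against one another. They are named in the order of their signal. Probe 1, at chr16:25892012-25892071, listed for 4 RefSeq transcripts and described as transcript variant 4, had intensities of 15264 and 13878 and a difference of 0.14. Probe 2, at chr16:25871159-25871218, listed for 3 transcripts and described as variant 3, had intensities of 5967 and 4413 and a difference of −0.15. Probe 3, at chr16:25821344-25821403, had 5708 and 4015, a difference of −0.23, and probe 4, at chr16:25867718-25867777, had 883 and 604, a difference of −0.26. All 4 lie on the plus strand of mm9, with probe 1 the farthest downstream, and probes 3 and 4 are listed for no RefSeq transcript. The median over the 4 probes was −0.19, and their values spanned 0.41, beside a scanner error of 0.20 on each, with no probe at 2-fold. The probes are given because they read separate stretches of the locus.
Probe 1, first 30 bases: caaaaggtactttcttatagacatgatact
Probe 2, first 30 bases: acacgatcgaaacgtacaggcagcagcagc
Probe 3, first 30 bases: acttaccatgtgtcctggctatagcttttc
Probe 4, first 30 bases: cagtcccatataccatgcacttaactcttt
The paralogues *Trp53* and *Trp73* had differences of 0.04 and −0.31, and the 3 probes of *Trp73* ran from −0.31 to 0.20.

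**Figure D2:**
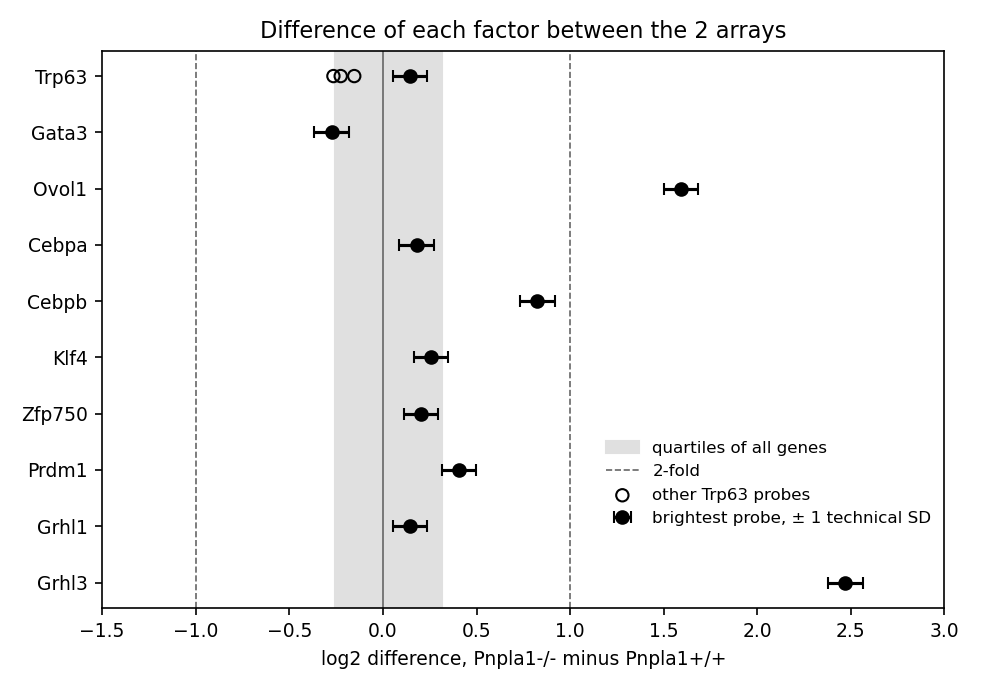
Log2 difference of the brightest probe of each member (filled points, bars of 1 technical SD, 0.09) and of the other 3 *Trp63* probes (open points), with the range between the quartiles of all genes shaded and 2-fold marked by dashed lines. *Grhl3* at 2.47 and *Ovol1* at 1.59 lie past 2-fold, *Cebpb* at 0.82 lies just inside it, and *Gata3* at −0.27 is the only brightest probe below 0 with this scaling.

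Of the 26 family relatives of the members, 24 gave a difference, of which 2 (*Cebpe* and *Cebpd*) were at least 2-fold higher and none at least 2-fold lower. Their median was 0.07. A further 42 regulators of epidermal or follicular fate were all measured, with 4 past 2-fold upwards, none downwards, 27 below 0 and a median of −0.16, while 2 were past 2-fold downwards without scaling and 6 with spike-in centring. The 4 included 3 factors of the ETS family found in differentiating epithelia. *Ehf* read 528 on the wild-type array and 11715 on the knockout array, a 27.0-fold difference, and its 2 probes gave 4.61 and 4.75 on the log2 scale. *Elf3* went from 115 to 1001, a difference of 3.40, and *Elf5* from 120 to 931, a difference of 3.24. The ETS gene of the list that is not restricted to epithelia, *Ets1*, had intensities of 1096 and 933 and a difference of 0.05. *Hopx*, a homeodomain cofactor of differentiated keratinocytes, was the remaining one, from 10756 to 25014, which is 2.83-fold. The 3 ETS genes thus had larger log2 differences than any of the 10 members. At the other end were *Pou3f1* (−0.88), *Barx2* (−0.76) and *Msx2* (−0.71), all under 2-fold and chosen for mention after their values were seen.

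Known targets of the members were described by list. The 10 targets of grainyhead-like factors had a median of 0.74, with 9 above 0, 4 at least 2-fold higher and none at least 2-fold lower. With spike-in centring the median was 0.31, with 6 above 0, 2 at least 2-fold higher and 1 lower, and without scaling it was 0.46, with 2 higher. *Tgm1*, the transglutaminase that cross-links the cornified envelope, went from 2942 to 8764, a difference of 1.86. *Tgm5*, another epidermal transglutaminase, had a difference of 1.27, and the desmosomal cadherins *Dsg1b* and *Dsg1c* had differences of 1.45 and 1.04. The third gene of that cluster, *Dsg1a*, had a difference of 0.35, and RNA of these near-identical neighbours may cross-hybridise. *Rab25* (0.80) and *Esrp1* (0.68), which serve epithelial trafficking and splicing, were under 2-fold, as were *Cdh1* (0.31) and *Cldn4* (0.28). *Arhgef19*, which links *Grhl3* to planar cell polarity in wound closure, had −0.68 at its brightest probe and 0.43 at the other.

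The 15 targets of p63 had a median of −0.05 and fell on both sides of 0, with 2 genes past 2-fold in each direction. Without scaling the median was −0.33, with 12 below 0, 1 at least 2-fold higher and 2 lower. With spike-in centring it was −0.48, with 13 below 0, 0 at least 2-fold higher and 2 lower. The basal keratin *Krt14* went from 53789 to 112502, a difference of 1.35, whereas its partner *Krt5* had a difference of 0.22. *Sfn*, the gene of stratifin, had a difference of 1.04. *Fras1*, of the basement membrane, had −1.08 and the plakin *Dst* −1.12, although the 3 probes of *Dst* ran from −1.12 to 0.19. The targets of C/EBP, KLF4, GATA3, OVOL1 and PRDM1 had a median of 0.20 over 9 of 10 genes, with 1 past 2-fold, downwards. That gene was *Agpat5*, a lipid acyltransferase known as a target of GATA3 in epidermis, which read 18792 on the wild-type array and 2947 on the knockout array, a difference of −2.39. *Krt1* (0.10), *Krt10* (0.20) and *Ivl* (0.02) were near the median of all genes, *Alox12b* was at 0.76 and *Myc* at 0.37, and *Sprr2a1* was on neither array well above background.

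**Figure D3:**
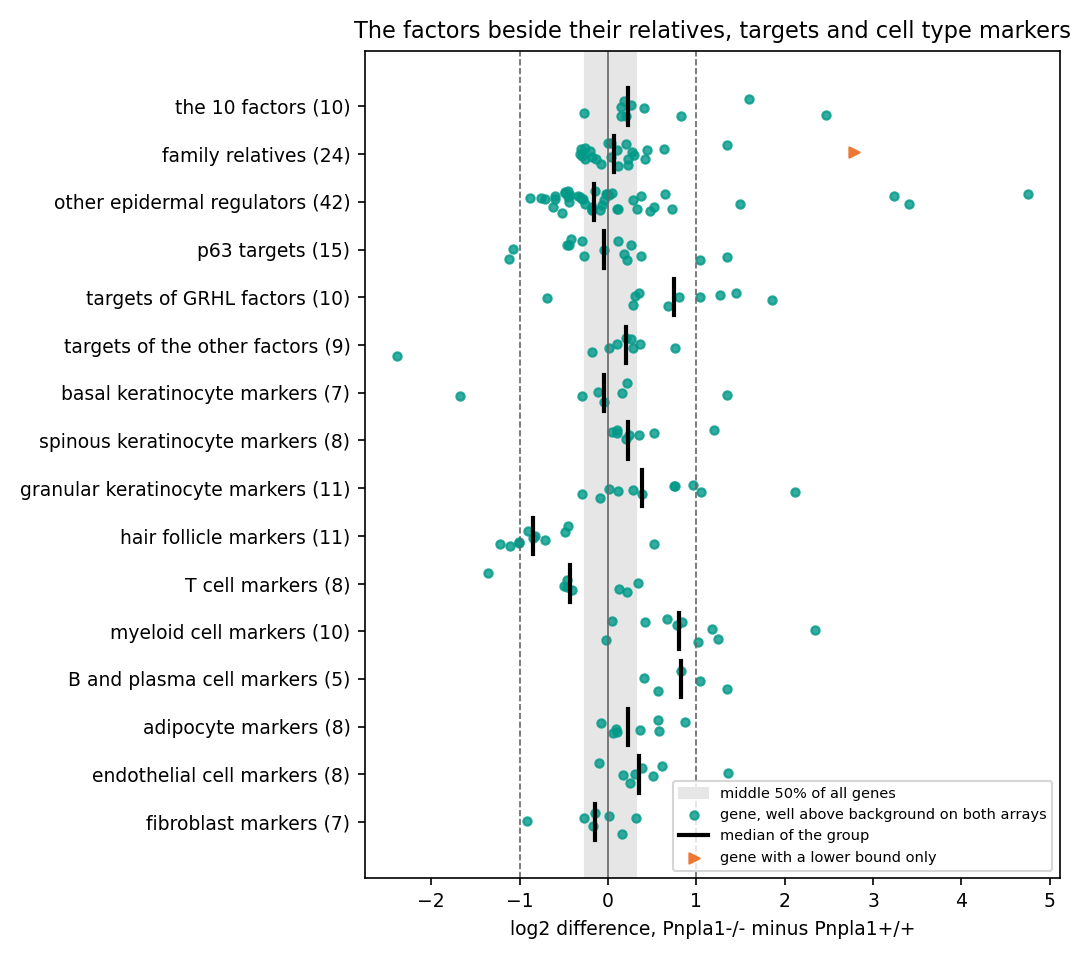
Log2 differences of the genes of 16 groups, with the number that gave a difference in brackets, the median of each group as a black bar and the range between the quartiles of all genes shaded. The members have a median of 0.23, the targets of grainyhead-like factors one of 0.74 and the hair follicle markers one of −0.85, and the 3 points past 3 are *Ehf*, *Elf3* and *Elf5*.

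The members act in different layers and cell types, so markers of each were read on the same arrays. Spinous markers had a median of 0.22, with 8 of 8 above 0, against 3 without scaling and 2 with spike-in centring, and 1 (*Dsc1*, 1.20) at least 2-fold higher. Granular markers had a median of 0.38 over 11 genes, with *Tgm3* (2.12) and *Klk7* (1.05) at least 2-fold higher and none at least 2-fold lower. *Flg* of this list was not analysed. The paper describes *Flg*, *Flg2*, *Lor*, *Lce1a* and *Lce1b* as lower in *Pnpla1*-/- epidermis, and of these the list measured *Lor* alone. The granular median was 0.10 without scaling, 0.23 with quantile normalization and −0.05 with spike-in centring, with 1 at least 2-fold higher in each. The brightest probes of these lists were those of *Krt10* and *Lor*, at 0.20 and −0.30, where brightness is that of a probe and does not rank genes by abundance, and *Tgm3* ran from 0.03 to 2.12 over its 2 probes. Basal markers had a median of −0.05 over 7 genes. *Krt14* was at least 2-fold higher and *Krt15*, a keratin of basal and follicle stem cells, was lower at −1.67. The basal median was −0.33 without scaling and −0.48 with spike-in centring, each with 6 below 0. With spike-in centring 0 basal markers were at least 2-fold higher. The sums of probe intensities relative to the 75th percentile, which follow the brightest probes, were 194 and 224 for basal, 389 and 443 for spinous and 221 and 234 for granular markers in *Pnpla1*+/+ and *Pnpla1*-/- skin. Before scaling, each sum was lower in *Pnpla1*-/- skin, so the direction of these sums depends on the scaling. The unscaled sums were 408017 and 388369 for basal, 819922 and 768325 for spinous and 466126 and 405982 for granular markers.

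Hair follicle markers, relevant to *Gata3*, had a median of −0.85, with 10 of 11 below 0. *Krt28* (−1.23), *Krt27* (−1.10), *Hoxc13* (−1.01) and *Lef1* (−1.01) were at least 2-fold lower, a count of 4 that ran from 2 with cyclic loess to 8 with spike-in centring, and the list summed to 101 and 56.2 relative to the 75th percentile. The brightest, *Krt71* of the inner root sheath, went from 84119 to 39193, a difference of −0.82. T cell markers had a median of −0.43 over 8 genes, 5 below and 3 above 0, with 1 of them, *Cd5* (−1.36), at least 2-fold lower. The median was −0.063 with normexp background correction. It was −0.71 without scaling, with 7 below 0, and −0.86 with spike-in centring, with 8 below 0. They summed to 12.4 and 9.21, and the brightest probe was that of *Thy1* (−0.46), a gene also of fibroblasts. *Cd3e*, *Cd3d* and *Cd3g* had intensities of 730, 95.3 and 146 in *Pnpla1*+/+ skin and of 656, 57.1 and 91.0 in *Pnpla1*-/- skin, with differences of 0.13, −0.46 and −0.40, and *Cd2* (0.34) and *Lck* (0.21) were also above 0. The hair follicle markers were thus lower beside *Gata3*, while the T cell markers were divided with scaling by the 75th percentile. The part of these cells in the *Gata3* value was not tested.

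Myeloid markers, relevant to the C/EBP genes, had a median of 0.81 over 10 genes, with 4 at least 2-fold higher, none at least 2-fold lower and 9 above 0. Without scaling and with spike-in centring 1 was at least 2-fold higher, and the medians were 0.53 and 0.38. *Lyz2* went from 361 to 1512, a difference of 2.35, and *Adgre1* (1.24), *Fcgr3* (1.18) and *Cd14* (1.02) followed. The probes of the list summed to 62.8 and 75.1, or to 132389 and 130282 before scaling. Most of these sums came from the brightest probe, that of *Csf3r*, which read 89901 and 76226 and was at 0.04. The granulocyte marker *Ly6g* had intensities of 524 and 576 and a difference of 0.42. B and plasma cell markers, relevant to *Prdm1*, had a median of 0.82 over 5 of 7 genes and summed to 2.82 and 5.79. *Cd79b* (1.35) and the brightest, *Sdc1* (1.04), a gene also of keratinocytes, were at least 2-fold higher. *Ms4a1* and *Jchain* were not well above background on either array. The median of this list was 0.51 with normexp, 0.54 without scaling (1 at least 2-fold higher) and 0.39 with spike-in centring (0 higher). *Cebpd* and *Cebpe* were thus past 2-fold beside these lists, while *Cebpb* and *Prdm1*, at 0.82 and 0.41, were not, and the part of blood cells in these values was not tested.

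Other cells of the skin were read in the same way. Adipocyte markers, relevant to *Cebpa*, had a median of 0.23 over 8 genes, none past 2-fold, and summed to 95.7 and 118, with *Fabp4* (0.10) the brightest and *Lep* not well above background on either array. Before scaling, the adipocyte sums were 201685 and 204003. Endothelial markers had a median of 0.35 over 8 genes and summed to 9.56 and 13.2. *Vwf* (1.35) was at least 2-fold higher and *Cldn5* (−0.10) was the brightest. The endothelial median was 0.07 without scaling and −0.08 with spike-in centring, with 0 at least 2-fold higher in the latter. Fibroblast markers had a median of −0.15 over 7 genes, none past 2-fold, and summed to 344 and 325, with *Col1a2* (−0.17) the brightest. Their median was −0.43 without scaling and −0.58 with spike-in centring, with 1 at least 2-fold lower in each.

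How the arrays are scaled decides the sign of the small differences. *Grhl3* stayed between 2.04 and 2.48 and *Ovol1* between 1.16 and 1.68 in all 12 alternatives tried, both past 2-fold in each, and *Cebpb* stayed between 0.39 and 0.83. Without scaling, *Trp63*, *Klf4*, *Zfp750*, *Cebpa* and *Grhl1* turned negative, and with centring on 8 spike-in RNAs these and *Prdm1* did, down to −0.29 for *Trp63*. The mean over its probes also turned *Trp63* negative. *Gata3* was below 0 in every setting, from −0.71 to −0.26. The ETS genes kept at least 2-fold in all 12, with lowest values of 4.32 for *Ehf*, 2.88 for *Elf3* and 2.68 for *Elf5*.

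**Figure D4:**
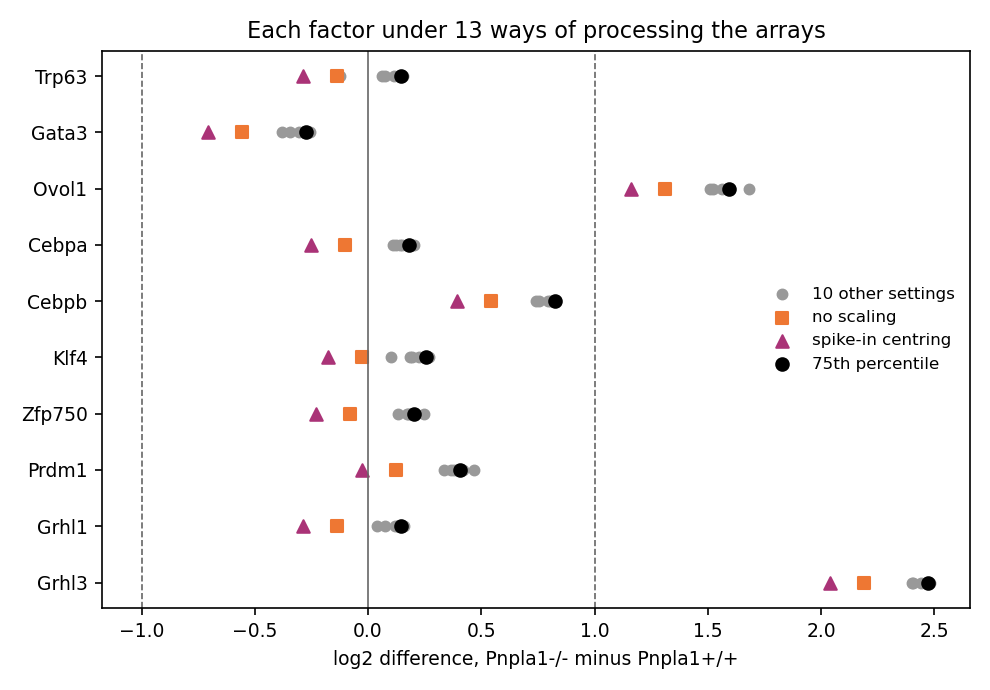
Log2 difference of each member under 13 ways of processing the arrays, the 75th percentile (black circles), no scaling (squares), spike-in centring (triangles) and 10 others (grey). Points of *Grhl3* and *Ovol1* all lie above 1 and those of *Gata3* all below 0, while *Trp63*, *Klf4*, *Zfp750*, *Prdm1*, *Cebpa* and *Grhl1* lie on both sides of 0.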

How the data were processed

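Skin RNA pooled from 6 newborn mice per genotype was amplified, labelled with Cy3 and hybridised to 1 Agilent mouse array per genotype, and both arrays were on the same slide. The authors deposited, for each of 43020 spots other than controls, a linear intensity from Feature Extraction 11.5.1.1 after background subtraction, with flags per spot. They also deposited a table of ratios, each the intensity divided by 1 factor per array (2109 and 1734), which was used as an alternative. The methods name global normalization.

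From the intensities, each array was divided by its 75th percentile and taken to log2 with Python 3.11.15, numpy 2.4.6 and pandas 2.3.3. Outlier-flagged spots (138 and 82) were left out, repeated spots were averaged and a gene was represented by its brightest probe. Of the spots, 71.7% and 73.3% were well above background on the *Pnpla1*+/+ and *Pnpla1*-/- arrays. A gene well above background on 1 array gave a bound, in which the dim side was set to its own signal or, if larger, to the weakest signal well above background on that array. With 1 array per genotype no test was run, and the number of arrays limits the precision. Probe names were brought up to date through RefSeq (GRCm38.p6), by accession for 27591, by symbol for 3493 and by older symbol for 393 probes, while 7952 kept the file's name. Positions of probes follow the scanner files (mm9), and no exon or UTR position was analysed here. *Flg* and *Trac* of the marker lists were not analysed here. A family relative is not reported here by name.

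The members and the 15 other lists (175 genes, 16 in more than 1 list) were chosen with earlier results of these data known. Named are the members with every probe, *Pnpla1*, up to 6 genes a list past 2-fold in each direction, the marker with the brightest probe and those not well above background, and the nearest family relatives, with other genes given as examples. As alternatives, arrays were left unscaled, scaled by the median or by a 75th percentile taken over bright probes alone, centred on spike-in RNAs, or normalized by quantiles, by cyclic loess or after normexp (offset 50), the last 3 with limma 3.58.1 (R 4.3.3). Further alternatives were the deposited ratios, averaging a gene's probes, dropping bounds, keeping dim probes, keeping outlier spots, and thresholds of 1.5-fold and 3-fold. The computation was run on simulated data with added differences well past 2-fold in bright genes. This checks the code and not the noise of real arrays, the scaling or dim probes.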

Additional observations from a re-analysis of the deposited data

How the results depend on the processing

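The counts of members past 2-fold, 2 higher and 0 lower, were the same in all 12 alternatives of processing, and a threshold of 3-fold also gave 2 and 0, while 1.5-fold gave 3 and 0. The median over the members (0.23) turned to −0.0525 without scaling and to −0.20 with spike-in centring, and lay between 0.16 and 0.23 in the other 10. No scaling and spike-in centring moved the median of all genes to −0.28 and −0.43, and the members' median stayed 0.23 above it in both. Both settings shift all genes nearly alike, so that this gap could hardly move. The gap was 0.17 with normexp and 0.12 with dim probes kept. The 8 spike-in RNAs were 0.43 higher on the *Pnpla1*-/- array after scaling by the 75th percentile, with a range from 0.30 to 0.52. Of all genes past 2-fold, 68.8% were higher (1499 higher, 681 lower), against 41.2% without scaling (998 and 1424) and 27.5% with spike-in centring (826 and 2178). Normexp gave 959 and 321, and keeping dim probes gave 10.1% higher and 3.67% lower of 30133 genes, with a median of all genes of 0.10. The medians of family relatives, of targets of the other factors and of spinous and adipocyte markers turned negative without scaling and with spike-in centring, the first 2 also with quantile normalization (−0.0006 and −0.0247), and those of granular and endothelial markers with spike-in centring. Of 31 other named genes past 2-fold, 14 were past it in every setting that gave them a value and 17 were not, of which 13 fell short with spike-in centring, 9 without scaling and 5 with scaling by the median. *Cd14* was past 2-fold in 7 of 12 settings, *Klk7*, *Sdc1* and *Dsg1c* in 8, *Sfn* in 9, *Dsc1*, *Tgm5*, *Adgre1*, *Fcgr3*, *Fras1*, *Lef1* and *Hoxc13* in 10, and *Krt14*, *Cebpd*, *Cd79b*, *Vwf* and *Dst* in 11, and none changed sign. Hair follicle markers past 2-fold went from 4 to 7 without scaling and to 8 with spike-in centring. The bound of *Cebpe* (2.78 on the log2 scale) was 1.25 with normexp and 3.57 with dim probes kept. A term for the slide was not run, since both arrays lie on 1 slide. No paired analysis was possible because each genotype has 1 array.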

Other observations

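Probes of a gene gave different values for several genes beside *Trp63*, chosen for mention after their values were seen. The myeloid integrin *Itgam* had −0.03 at its brightest probe and up to 2.84 at another of its 3 probes, while the macrophage gene *Adgre1* had 1.06 and 1.24 at both of its probes. *Cdkn1a*, the cell cycle inhibitor that p63 and KLF4 act on, ran from 0.26 to 0.81 over 3 probes. *Casz1*, a zinc finger gene read by 5 probes, ran from −0.18 to 0.10. The sequences read by these probes were not mapped to transcripts here.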
